A study of Mus musculus with 21 samples.

Results

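Genes known as targets or feedback genes of the transcription factor STAT5 were followed in transformed mouse B cell precursors. The 9 genes were taken by symbol from the deposited count and FPKM tables, which hold 24421 genes: the feedback inhibitors Cish, Socs1, Socs2 and Socs3, the kinases Pim1, Pim2 and Pim3, the repressor Bcl6 and the cytokine Osm. All 9 of 9 were present in both tables, and all 9 were among the 12786 genes with enough counts to be tested. The lowest count of any of them in any library was 135.

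The cells were bulk cultures enriched from the bone marrow of 53BP1-/- C57BL/6 mice, which lack a DNA repair factor in every group, and were grown with 10 ng/ml of IL-7. They were transduced on days 2 and 3 of culture with the retroviral MIGR1 vector, either empty (EV), encoding human BCR-ABL1 (the p210 form) or encoding mouse C-MYC, and poly(A) RNA was sequenced on days 7 to 9 after transduction, after dead cells had been removed. Each of the 3 conditions had 2 libraries from duplicate experiments, and no source used here says that these were separate animals, so that p-values measure only the spread between these libraries. In the ChIP-seq part of the study, not analysed here, DNA damage was mapped in such cells.

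IL-7 binds its receptor on B cell precursors, which activates the kinases JAK1 and JAK3, and these phosphorylate STAT5. STAT5 dimers then enter the nucleus and bind DNA at the palindromic consensus TTCNNNGAA. Among the genes that STAT5 switches on are CISH and SOCS proteins, which bind the receptor or the JAKs and dampen the signal that induced them, and PIM kinases, which promote survival and growth. Bcl6 behaves in the opposite way in B cell precursors, where signaling through IL-7 and STAT5 holds it down. BCR-ABL1 is a constantly active tyrosine kinase that can phosphorylate STAT5 without a cytokine, whereas C-MYC is itself a transcription factor.

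To show where the STAT consensus lies in these genes, RefSeq start sites (assembly GRCm38.p6) were searched in a window of 300 bases, from 250 bases before to 50 after each start. The consensus reads the same on both strands, and matches were counted wherever they began. A window was found for 7 of the 9 genes, and Socs2 and Osm are named only. Of all 32851 windows in the table, 8.30% held at least 1 match, 0.457% at least 2 and 0.0335% at least 3. Cish held 2 matches, Socs3 held 1, and Bcl6 held 1 at its upstream start and 3 at a second start inside the gene. No match was found in the windows of Socs1, Pim1 (2 starts), Pim2 and Pim3, which says only that these letters are absent from those bases. Every stretch of these genes with a match is shown 5′ to 3′ on the strand of the gene, with each match in capitals. A link between matches and RNA levels was not tested.
Cish, chr9:107296619-107296688, forward strand: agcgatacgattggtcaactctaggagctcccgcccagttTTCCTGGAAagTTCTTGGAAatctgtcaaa
Socs3, chr11:117969472-117969560, reverse strand: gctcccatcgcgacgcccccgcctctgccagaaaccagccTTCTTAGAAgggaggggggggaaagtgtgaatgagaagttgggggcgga
Bcl6, upstream start, chr16:23988922-23989010, reverse strand: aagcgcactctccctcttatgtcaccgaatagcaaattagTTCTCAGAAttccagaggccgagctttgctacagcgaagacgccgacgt
Bcl6, start inside the gene, chr16:23981323-23981491, reverse strand: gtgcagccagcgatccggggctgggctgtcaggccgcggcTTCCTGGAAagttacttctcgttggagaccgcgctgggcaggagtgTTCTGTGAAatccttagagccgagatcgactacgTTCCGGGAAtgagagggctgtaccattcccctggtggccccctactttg
In Cish the matches TTCCTGGAA and TTCTTGGAA begin 0 and 11 bases after the start site, and GENCODE places all 70 bases of that stretch in an exon. The Socs3 match TTCTTAGAA lies 154 bases before the start, in a stretch that GENCODE places within the gene and outside its exons. The Bcl6 match TTCTCAGAA lies 118 bases before the upstream start, outside the exons. The matches TTCCTGGAA, TTCTGTGAA and TTCCGGGAA begin 168, 122 and 88 bases before the Bcl6 start inside the gene, in an intron. A match is a run of letters, and no binding of STAT5 was measured.

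Library totals lay between 20687092 and 24095955 counts. Mouse Myc, the gene carried by the C-MYC vector, was at 181 and 137 CPM (counts scaled to library size, with TMM factors) in EV, 343 and 348 with BCR-ABL1 and 1743 and 1233 with C-MYC. Human BCR-ABL1 was not separated from mouse Abl1 and Bcr in the gene table, and Trp53bp1, which encodes 53BP1, had 342 to 723 counts in the 6 libraries, which checks nothing where the deleted part is not known. All 12 of 12 B cell precursor markers were above 1 CPM in every library, with a summed level of 6551 and 5883 CPM in EV, 6741 and 6074 with BCR-ABL1 and 4182 and 3553 with C-MYC. Of these 12, 1 rose and 3 fell in BCR-ABL1, 10 fell and 0 rose in C-MYC, and 9 were higher and 0 lower in BCR-ABL1 than in C-MYC (median log2 values 0.03, -0.81 and 0.60). Of all tested genes, 5.08% rose and 12.0% fell in BCR-ABL1, and 18.6% rose and 24.5% fell in C-MYC. Between the oncogenes 11.9% were higher and 11.5% lower in BCR-ABL1. The summed markers of other cells, apart from plasma and mature B cells, were higher in EV. The summed CPM of 14 myeloid markers was 1370 and 1262 in EV, 152 and 171 with BCR-ABL1 and 223 and 385 with C-MYC, with none at 0 counts, and 14 of 14 were lower in each oncogene condition by the test used for the genes of interest. Elane, Mpo, Ctsg and Prtn3 met the count filter through EV alone, so that their direction adds nothing to this count. The 10 T and NK cell markers summed to 166 and 126 CPM in EV and to between 4.46 and 10.9 in the other 4 libraries, with Gzma at 0 in 1 of them, and 10 of 10 were lower in each oncogene condition. Gzma and Ncr1 likewise met the count filter through EV alone. The 8 mast cell and basophil markers summed to 106 and 107 CPM in EV and to between 2.41 and 5.97 elsewhere, with Mcpt4 at 0 throughout. The 9 stromal and endothelial markers summed to 250 and 264 CPM in EV, 72.2 and 62.2 with BCR-ABL1 and 32.4 and 27.9 with C-MYC, with Lum at 0 throughout. Pecam1 made up most of the BCR-ABL1 sums (66.7 and 55.9 CPM). The 9 erythroid and megakaryocyte markers summed to 38.7 and 48.5 CPM in EV and to between 7.98 and 13.7 elsewhere, with Hbb-bt and Hba-a1 at 0 throughout, and 7 plasma cell and mature B cell markers to between 145 and 228 in all 6. The erythroid gene Alas2 passed no comparison, and the plasma cell marker Sdc1 rose in C-MYC relative to EV (log2 fold change 1.47, edgeR adjusted p = 0.000436). The part of these other cells in the differences from EV, and of the shift in B cell precursor markers in the differences of C-MYC from both other conditions, was not tested, and in bulk RNA fewer cells of a type and less RNA per cell cannot be told apart. The EV libraries also differed most from each other: 6.30% of tested genes lay more than 2-fold apart between them, against 3.75% for C-MYC and 2.55% for BCR-ABL1.

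The STAT5 genes did not move as a block. In BCR-ABL1 cells Cish rose 2.97-fold over EV and Pim2 fell, whereas in C-MYC cells Socs1, Socs3 and Pim2 fell between 2.83-fold and 3.29-fold and Pim3 rose 1.97-fold. With edgeR's quasi-likelihood test and Benjamini-Hochberg adjustment over 12786 genes, 2 of the 9 genes passed an adjusted p of 0.05 between BCR-ABL1 and EV. This was 1 higher, where 5.08% of all tested genes were higher, and 1 lower, where 12.0% were lower. Between C-MYC and EV, 4 of 9 passed, 1 higher beside 18.6% of all genes and 3 lower beside 24.5%. Between BCR-ABL1 and C-MYC, 6 of 9 passed, 5 higher in BCR-ABL1 beside 11.9% of all genes and 1 lower beside 11.5%. With a term for the replicate number in the fit, 6, 6 and 7 of the 9 passed in these 3 comparisons. No label ties that number to a shared animal or day. The median log2 fold change of the 9 genes was 0.29 in the first comparison, -0.86 in the second and 0.93 in the third, beside 0.00104, -0.08 and 3.3e-05 over all tested genes. The first and second comparisons share the EV libraries. Of all genes called, 29.8% were higher in BCR-ABL1 than in EV and 43.2% higher in C-MYC than in EV, and these shares were 19.4% and 32.2% when libraries were scaled to their total count alone, which also moved the median of all genes between C-MYC and EV to -0.19.

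**Figure D1:**
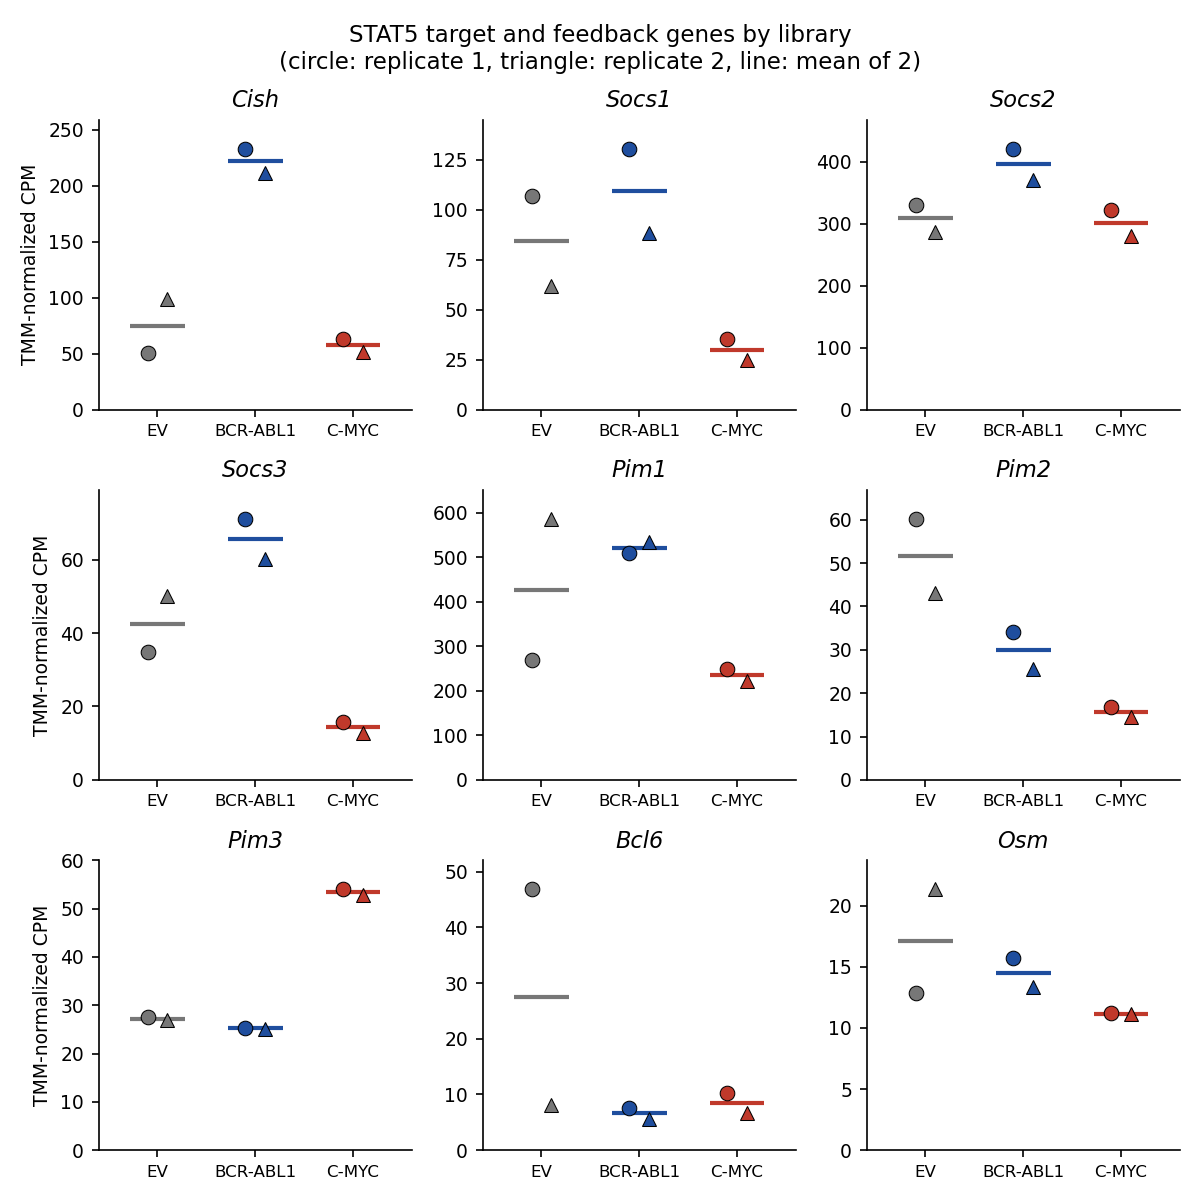
TMM-normalized CPM of the 9 genes in each of the 6 libraries, on a linear axis that starts at 0 in every panel. Circles are replicate 1, triangles replicate 2 and lines the mean of both. Cish stands apart in BCR-ABL1 (233 and 212 CPM), Pim3 stands apart in C-MYC (54.0 and 52.8 CPM), and Bcl6 is high in 1 EV library only (46.8 CPM).

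**Figure D2:**
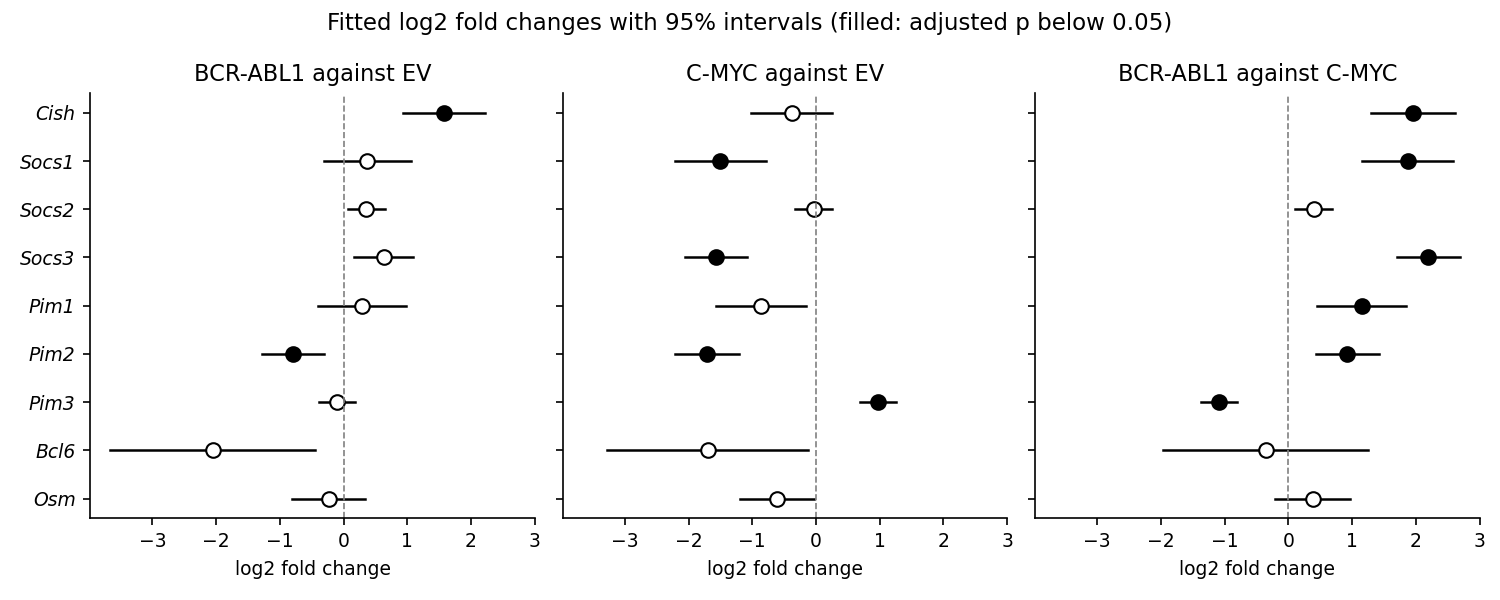
Log2 fold changes from the edgeR fit (points) with 95% intervals (bars) for the 9 genes in the 3 comparisons, filled where the adjusted p was below 0.05. The comparison of BCR-ABL1 with C-MYC holds 6 filled points and that of BCR-ABL1 with EV holds 2, and the intervals of Bcl6 are the widest of the 9 in each panel.

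Cish encodes CISH, an SH2 protein that binds activated cytokine receptors and competes with STAT5 there. The gene lies at chr9:107296026-107302784 on the forward strand (GENCODE for GRCm38, as for all positions of genes given here). Its level was 50.5 and 99.0 CPM in EV, 233 and 212 with BCR-ABL1 and 62.9 and 51.9 with C-MYC. Both BCR-ABL1 libraries lay above the other 4, and the EV and C-MYC libraries overlapped. The log2 fold change between BCR-ABL1 and EV was 1.57 (SE 0.28, n = 2 libraries per condition, edgeR adjusted p = 0.00892), the 114th highest of 12786. Against C-MYC it was 1.95 (SE 0.28, edgeR adjusted p = 0.00385), which is 3.87-fold. C-MYC and EV gave -0.38 (SE 0.28, edgeR adjusted p = 0.298), with a 95% interval from -1.02 to 0.26. It was -0.78 and called without EV replicate 1 (edgeR adjusted p = 0.00308) and 0.19 and not called without EV replicate 2. Cish was called between BCR-ABL1 and EV, and between BCR-ABL1 and C-MYC, with each of the 6 libraries left out in turn, with log2 fold changes of 1.17 to 2.14 and 1.82 to 2.10. Annotated genes on the other strand share exon bases with Cish (479 bases with Gm17041 and 261 with Gm17040). Neither is a row of the table, and the strand setting of the counting is not given in the sources used here.

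Socs1 encodes a direct inhibitor of JAK kinase activity. It lies at chr16:10782240-10785536 on the reverse strand. Its level was 107 and 62.0 CPM in EV, 131 and 88.2 with BCR-ABL1 and 35.2 and 24.6 with C-MYC. The C-MYC libraries were the lowest of the 6, while EV and BCR-ABL1 overlapped. Socs1 fell in C-MYC relative to EV (log2 fold change -1.50, SE 0.31, edgeR adjusted p = 0.00616), which is 2.83-fold lower. It was 3.66-fold higher in BCR-ABL1 than in C-MYC (edgeR adjusted p = 0.00593), and between BCR-ABL1 and EV the log2 value was 0.37 (95% interval -0.31 to 1.06). The last ran from 0.03 without EV replicate 2 to 0.82 without EV replicate 1 (edgeR adjusted p = 0.944 and 0.059), and was not called with any library left out. Without C-MYC replicate 2 the calls of C-MYC against EV and against BCR-ABL1 were lost, with an edgeR adjusted p of 0.0546 against EV and 0.056 between the oncogenes, and each held without any other library.

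Socs3, whose product binds both the receptor and JAK, lies at chr11:117966079-117970047 on the reverse strand. Its level was 34.9 and 50.0 CPM in EV, 71.1 and 60.2 with BCR-ABL1 and 15.9 and 12.8 with C-MYC. The 3 conditions did not overlap, with BCR-ABL1 highest and C-MYC lowest. Socs3 fell 2.96-fold in C-MYC relative to EV (SE of the log2 value 0.21, edgeR adjusted p = 0.00114). It was 4.57-fold higher in BCR-ABL1 than in C-MYC (log2 fold change 2.19, SE 0.21, edgeR adjusted p = 0.000955), the largest difference of the 9 genes in any comparison. Both calls held with each library left out. Between BCR-ABL1 and EV the log2 value of 0.63 (SE 0.20) missed the threshold with an edgeR adjusted p of 0.0721, and passed it without EV replicate 2 (0.91, edgeR adjusted p = 0.00801), while without EV replicate 1 it was 0.40 and not called.

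Socs2, which encodes a family member best known for restraining growth hormone signaling, lies at chr10:95385362-95417180 on the reverse strand. Its level was 331 and 287 CPM in EV, 421 and 371 with BCR-ABL1 and 323 and 280 with C-MYC. Both BCR-ABL1 libraries were above the other 4, and EV and C-MYC overlapped. No comparison passed: the log2 value was 0.36 between BCR-ABL1 and EV (95% interval 0.07 to 0.65, edgeR adjusted p = 0.0914) and 0.39 between BCR-ABL1 and C-MYC (95% interval 0.11 to 0.68, edgeR adjusted p = 0.0557). The difference between the oncogenes was called with scaling to the total count, without a filter, with their 4 libraries alone, by limma on FPKM and without either EV library (adjusted p of 0.0234 to 0.0434), and that between BCR-ABL1 and EV without EV replicate 1 (0.47, edgeR adjusted p = 0.0454). C-MYC and EV gave -0.04 (95% interval -0.33 to 0.25), a sign that changed with the scaling.

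Compared per length, on the FPKM scale, Socs2 was the most abundant of the 4 feedback genes in every library. It made up 68.4% and 63.8% of their summed FPKM in EV, 53.7% and 54.9% with BCR-ABL1 and 77.1% and 78.9% with C-MYC. The share of Cish was 10.4% and 20.3% in EV, 28.9% and 30.6% with BCR-ABL1 and 14.6% and 14.1% with C-MYC. The sum itself was 217 and 214 FPKM in EV, 343 and 296 with BCR-ABL1 and 176 and 155 with C-MYC, so that the 3 conditions did not overlap. By counts per kilobase of annotated exon (TMM-normalized CPM divided by exon length), Socs1 was instead slightly above Socs2 in EV replicate 1 (36.8 against 34.7) and BCR-ABL1 replicate 1 (44.9 against 44.2). In EV replicate 1 Cish and Socs3 stood at 7.87 and 12.1 on that scale. In C-MYC replicate 1 Socs2 was at 33.8, beside 12.1 for Socs1, 9.80 for Cish and 5.50 for Socs3. The shares above hold for the FPKM scale alone. The order of Cish and Socs1 differed between libraries on both scales.

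**Figure D3:**
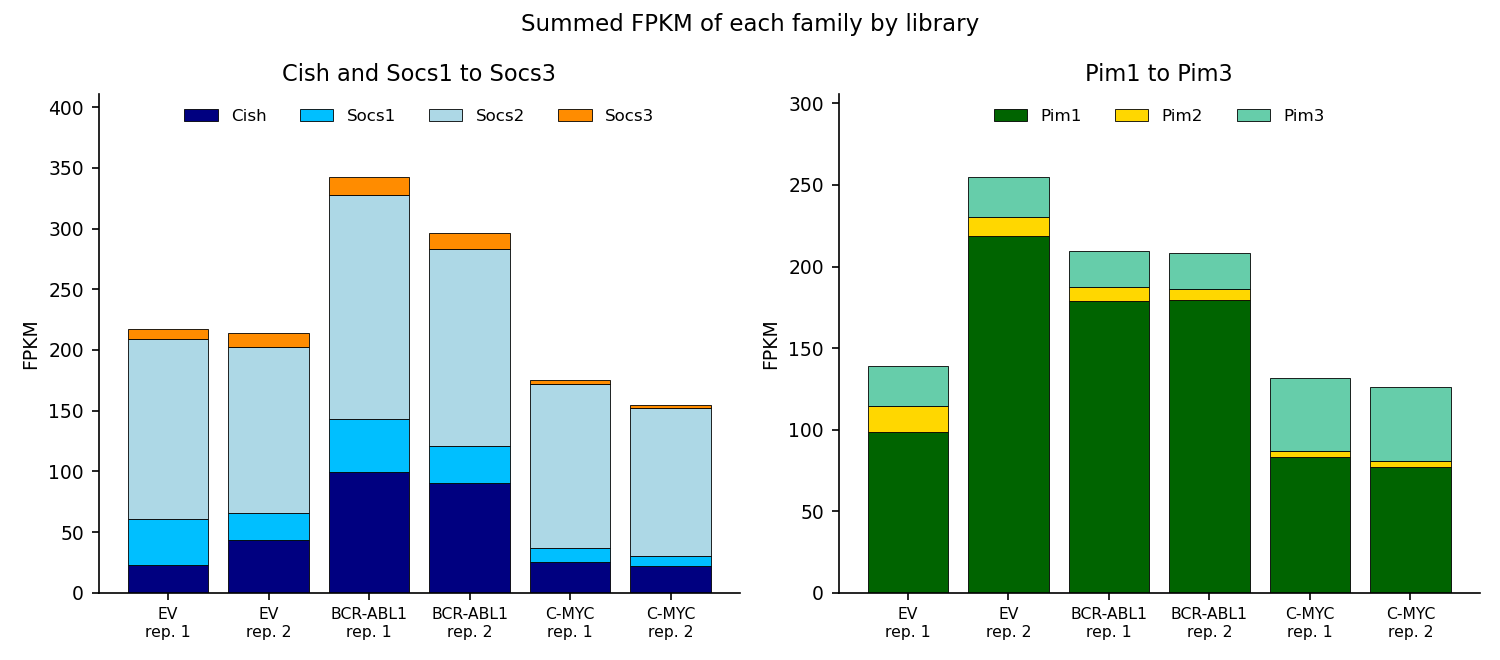
Stacked bars of FPKM for the feedback genes Cish and Socs1 to Socs3 (left) and the kinases Pim1 to Pim3 (right) in each library, starting at 0. Socs2 and Pim1 fill most of every bar, the Cish segment reaches 99.1 and 90.5 FPKM in BCR-ABL1, and the Pim3 segment reaches 44.3 and 45.4 FPKM in C-MYC.

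The PIM kinases are serine/threonine kinases that act without an activating partner, so that their activity follows the amount of protein. Pim1 lies at chr17:29490753-29496112 on the forward strand, and an annotated antisense transcript, Gm26885, which is no row of the table, shares 488 exon bases with it. Its level was 268 and 586 CPM in EV, 510 and 533 with BCR-ABL1 and 248 and 222 with C-MYC. The EV libraries were 2.18-fold apart and enclosed both BCR-ABL1 libraries, while both C-MYC libraries were the lowest of the 6. Pim1 was 2.22-fold higher in BCR-ABL1 than in C-MYC (log2 fold change 1.15, SE 0.30, edgeR adjusted p = 0.0308). This call was lost without either BCR-ABL1 library or either C-MYC library (largest edgeR adjusted p 0.166) and held without either EV library. Between C-MYC and EV the log2 value was -0.86 (SE 0.30, edgeR adjusted p = 0.0509). It was -1.31 and called without EV replicate 1, and -0.19 and not called without EV replicate 2. Between BCR-ABL1 and EV it was 0.29 (SE 0.30, edgeR adjusted p = 0.568), and it changed sign to -0.16 without EV replicate 1 and passed at 0.96 without EV replicate 2 (edgeR adjusted p = 0.00116).

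Pim2 was the only one of the 9 genes that was called in all 3 comparisons. It lies at chrX:7878262-7883432 on the forward strand. Its level was 60.2 and 43.1 CPM in EV, 34.1 and 25.6 with BCR-ABL1 and 16.9 and 14.5 with C-MYC. The 3 conditions did not overlap and stood in the order EV, BCR-ABL1, C-MYC. Pim2 fell 3.29-fold in C-MYC relative to EV (log2 fold change -1.72, SE 0.22, edgeR adjusted p = 0.000897), a call that held with each library left out. It fell 1.73-fold in BCR-ABL1 relative to EV (log2 fold change -0.79, SE 0.21, edgeR adjusted p = 0.0393). That call held only without EV replicate 2 (log2 fold change -1.01, edgeR adjusted p = 0.00623) and was lost without any one of the other 5 libraries, with a log2 value of -0.52 and an edgeR adjusted p of 0.0855 without EV replicate 1. It was 1.90-fold higher in BCR-ABL1 than in C-MYC (log2 fold change 0.93, SE 0.22, edgeR adjusted p = 0.0198), a call that held with 3 of the 6 libraries left out in turn and was lost without BCR-ABL1 replicate 1 or either C-MYC library.

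Pim3 went the other way in C-MYC cells. It lies at chr15:88862186-88865726 on the forward strand. Its level was 27.5 and 26.8 CPM in EV, 25.4 and 25.0 with BCR-ABL1 and 54.0 and 52.8 with C-MYC. The replicates lay within 1.02-fold of each other in every condition, and both C-MYC libraries were above the other 4. Pim3 rose 1.97-fold in C-MYC relative to EV (log2 fold change 0.97, SE 0.12, edgeR adjusted p = 0.000844) and was 2.12-fold higher in C-MYC than in BCR-ABL1 (log2 fold change -1.08 for BCR-ABL1 against C-MYC, edgeR adjusted p = 0.00159). Both calls held with each library left out, with log2 values of 0.96 to 1.00 and -1.10 to -1.07. Between BCR-ABL1 and EV the log2 value was -0.11, with a 95% interval from -0.39 to 0.17. On the FPKM scale Pim3 took 17.9% and 9.71% of the summed level of the 3 kinases in EV, 10.5% in each BCR-ABL1 library and 33.7% and 36.0% in C-MYC. Pim1 took 70.7% and 85.7% in EV, 85.4% and 86.3% with BCR-ABL1 and 63.2% and 61.2% with C-MYC. By counts per kilobase of annotated exon, Pim2 was instead above Pim3 in both EV libraries (21.5 against 11.3 and 15.4 against 11.1). The same held in BCR-ABL1 replicate 1 (12.2 against 10.5), while Pim2 was below Pim3 in BCR-ABL1 replicate 2 and both C-MYC libraries. These shares too hold for the FPKM scale alone.

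Bcl6, a transcriptional repressor that protects pre-B cells from DNA damage-induced arrest, lies at chr16:23965052-23988852 on the reverse strand, and Gm37419 on the other strand, which is no row of the table, shares 21 exon bases with it. It had 1002 and 193 counts in the EV libraries, 160 and 135 with BCR-ABL1 and 223 and 148 with C-MYC, which were 46.8 and 8.07, 7.58 and 5.61, and 10.3 and 6.65 CPM. EV replicate 1 stood apart from the other 5 libraries, and EV replicate 2 lay below C-MYC replicate 1. The EV libraries were 5.81-fold apart, and no comparison passed: the log2 value was -2.06 between BCR-ABL1 and EV (SE 0.69, edgeR adjusted p = 0.0837) and -1.70 between C-MYC and EV (SE 0.68, edgeR adjusted p = 0.0779). Without EV replicate 2 both were called (-2.83 with an edgeR adjusted p of 0.000205, and -2.47 with 0.000181), and without EV replicate 1 they were -0.29 and 0.07 and not called. BCR-ABL1 and C-MYC gave -0.36 with a 95% interval from -1.97 to 1.25.

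Osm, which encodes the cytokine oncostatin M, an early known target of STAT5 in blood cells, lies at chr11:4236420-4241026 on the forward strand. Its level was 12.9 and 21.4 CPM in EV, 15.7 and 13.3 with BCR-ABL1 and 11.2 and 11.1 with C-MYC. The C-MYC libraries were the lowest, and the EV libraries enclosed both BCR-ABL1 libraries. No comparison passed, with log2 values of -0.24 between BCR-ABL1 and EV (95% interval -0.81 to 0.34), -0.62 between C-MYC and EV (edgeR adjusted p = 0.0815) and 0.38 between BCR-ABL1 and C-MYC (95% interval -0.20 to 0.96). Without EV replicate 1 the difference between C-MYC and EV was called at -0.93 (edgeR adjusted p = 0.00417). Without EV replicate 2 it was -0.20 and not called, and that between BCR-ABL1 and EV changed sign to 0.18 and was not called. On the FPKM scale Osm averaged 2.07 in C-MYC to 3.36 in EV. Bcl6 was below it by FPKM in 4 of the 6 libraries and above it in EV replicate 1 (13.5 FPKM for Bcl6) and C-MYC replicate 1 (2.68 FPKM for Bcl6). By counts per kilobase of annotated exon, Bcl6 was instead below Osm in C-MYC replicate 1 (1.53 against 4.94). In EV replicate 1 Bcl6 stayed above Osm on that scale (6.99 against 5.66).

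**Figure D4:**
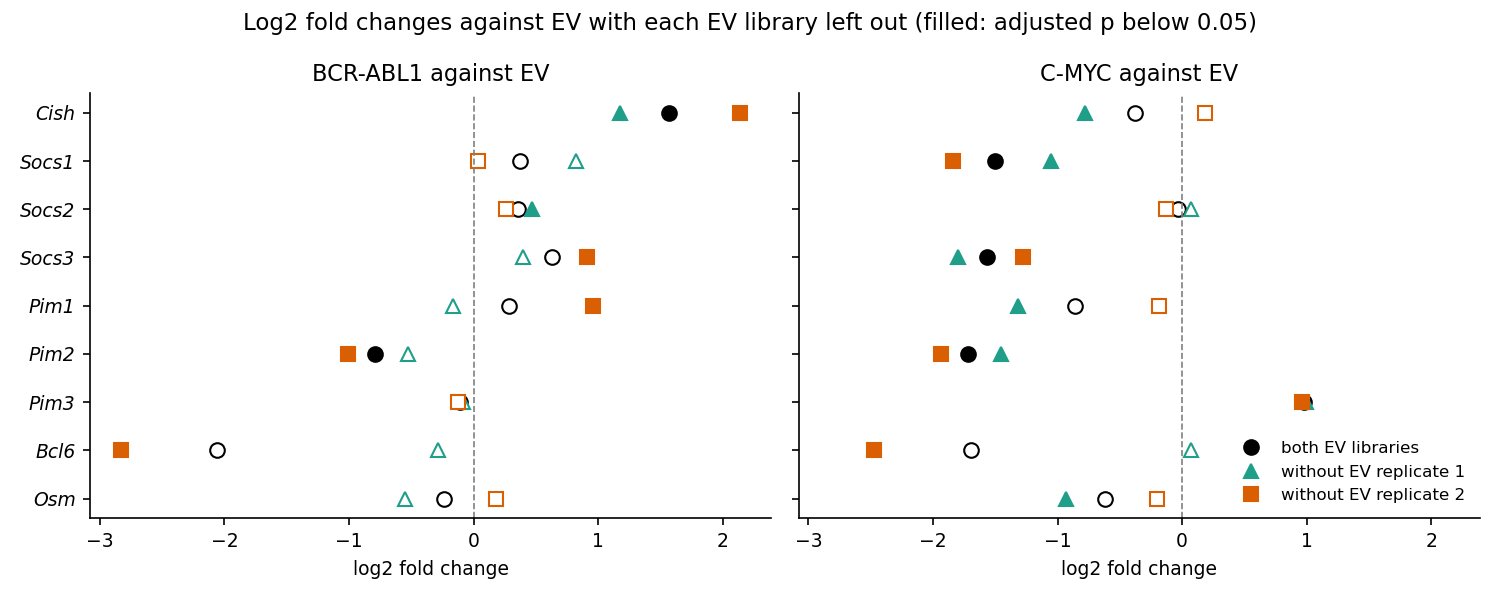
Log2 fold changes of the 9 genes against EV with both EV libraries (circles), without EV replicate 1 (triangles) and without EV replicate 2 (squares), filled where the edgeR adjusted p was below 0.05. Bcl6 moves from -2.83 to -0.29 in BCR-ABL1 with the EV library left out, Pim1 and Osm change sign in BCR-ABL1, Cish, Socs2 and Bcl6 change sign in C-MYC, and Pim3 stays in place.

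The genes upstream of STAT5 were compared next. Counts in this and the following lists stand beside these shares of all tested genes. In BCR-ABL1 relative to EV 5.08% rose and 12.0% fell, and in C-MYC relative to EV 18.6% rose and 24.5% fell. Between the oncogenes 11.9% were higher and 11.5% lower in BCR-ABL1. In C-MYC cells 11 of 14 tested genes of the IL-7 receptor, JAK and STAT list fell and 0 rose, with a median log2 fold change of -1.22 beside -0.08 over all genes, and in BCR-ABL1 cells 2 fell, 0 rose and 12 did not pass (median -0.34 beside 0.00104). By edgeR at an unadjusted p below 0.05, 11 and 7 of the 14 differed, and DESeq2 called 10 and 4. Il7r, the IL-7 receptor chain that also counts among the B cell precursor markers, was at 184 and 131 CPM in EV, 46.6 and 42.8 with BCR-ABL1 and 50.8 and 52.4 with C-MYC. It fell in both oncogene conditions (log2 fold changes -1.81 and -1.61, SE 0.17 for each, edgeR adjusted p = 0.00091 and 0.000506). Stat2, which acts in type I interferon signaling, fell in C-MYC (-2.15), as did Stat4, which acts downstream of IL-12, with 71.0 and 47.9 CPM in EV, 83.8 and 79.2 with BCR-ABL1 and 10.4 and 9.83 with C-MYC (log2 fold change -2.55, edgeR adjusted p = 0.000247). The genes of STAT5 itself, named after their values were seen, passed no comparison: Stat5a lay between 59.8 and 85.2 CPM and Stat5b between 89.5 and 103 CPM in the 6 libraries. Between BCR-ABL1 and C-MYC, 6 of 14 were higher in BCR-ABL1 and 0 lower (median 0.65 beside 3.3e-05).

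None of the other genes known as STAT5 targets passed the test as higher in BCR-ABL1 cells, as Cish did. Of 11 tested, 4 fell and 0 rose relative to EV (median log2 fold change -0.20), beside 12.0% and 5.08% of all tested genes. At an unadjusted p below 0.05 edgeR gave 6, and DESeq2 called 6, in either direction. Bcl2 (log2 fold change 0.48, SE 0.15, edgeR adjusted p = 0.064) and Igf1 (0.995, SE 0.41, edgeR adjusted p = 0.147) were higher in BCR-ABL1 without passing. Both are among the 6 genes that edgeR gave at the unadjusted threshold. The survival gene Bcl2l1, which encodes BCL-XL, was at 133 and 206 CPM in EV, 83.9 and 61.5 with BCR-ABL1 and 30.0 and 27.4 with C-MYC. It fell in both conditions (log2 fold changes -1.22 and -2.56, edgeR adjusted p = 0.0102 and 0.000365). Il2ra, the IL-2 receptor alpha chain (CD25) and a surface marker of pre-B cells, fell likewise from 110 and 92.4 CPM in EV to 56.9 and 52.2 with BCR-ABL1 and 22.2 and 20.5 with C-MYC (log2 fold changes -0.89 and -2.25, edgeR adjusted p = 0.00475 and 0.000175). Gadd45g, a growth arrest and stress gene, fell at a low level (-1.18 and -1.15). Id1, an inhibitor of helix-loop-helix factors, fell from 30 and 94 counts in EV to 12 and 6 with BCR-ABL1 and 7 and 8 with C-MYC (-2.72 and -2.96). Id1 met the count filter through EV alone, so that its direction adds nothing to the counts of genes that fell in this list. In C-MYC 8 of 11 fell and 0 rose (median -0.77, 8 at an unadjusted p below 0.05 by edgeR and 7 called by DESeq2), and between the oncogenes 4 of 11 were higher in BCR-ABL1 and 0 lower (median 0.39). Myeloid, T and NK, mast and stromal cell markers fell with these genes in both comparisons with EV, by the sums given above, and their part was not tested.

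**Figure D5:**
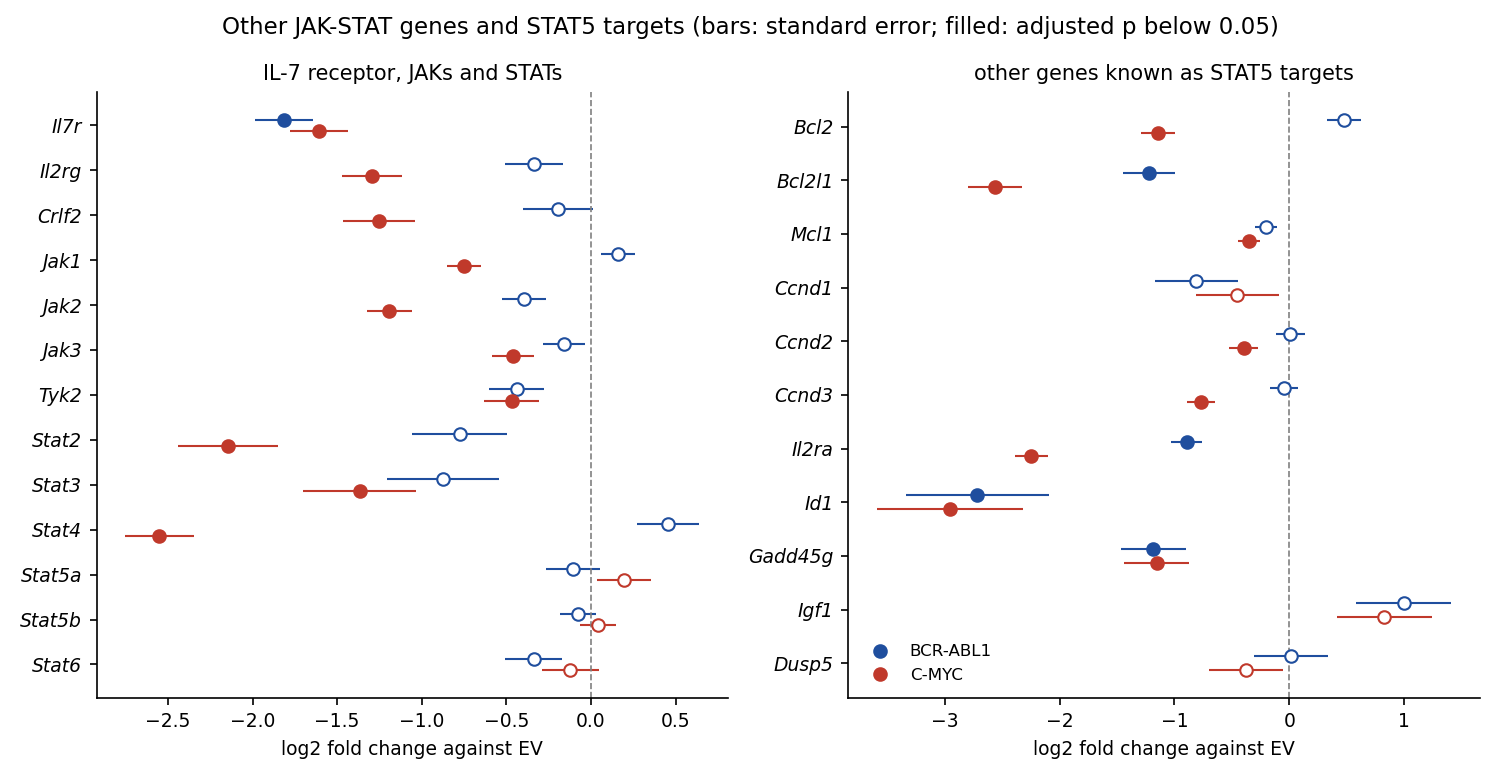
Log2 fold changes against EV (points, with bars of 1 standard error) of 13 genes of the IL-7 receptor, JAK and STAT list (left) and 11 other STAT5 target genes (right), in BCR-ABL1 (blue) and C-MYC (red), filled where the edgeR adjusted p was below 0.05. Stat5a and Stat5b lie near 0 in both conditions, and Stat4 lies at -2.55 in C-MYC.

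Other brakes on JAK-STAT signaling were compared likewise, beginning with the SOCS relatives outside the 9 genes. Of all tested genes, 5.08% rose and 12.0% fell in BCR-ABL1, and 18.6% rose and 24.5% fell in C-MYC. Of Socs4 to Socs7, 0 of 4 passed between BCR-ABL1 and EV (0 at an unadjusted p below 0.05 by edgeR and 0 called by DESeq2), and 1 of 4 fell in C-MYC, Socs5 (log2 fold change -1.24, edgeR adjusted p = 0.0039). The medians were -0.12 and -0.10. Of 13 phosphatases, PIAS proteins, adaptors and ubiquitin-pathway genes, 0 passed between BCR-ABL1 and EV (2 at an unadjusted p below 0.05 by edgeR and 0 called by DESeq2, median -0.07). In C-MYC 8 of 13 fell and 0 rose (median -0.59, with 9 at an unadjusted p below 0.05 by edgeR and 7 called by DESeq2). They included Usp18, a brake on interferon signaling (-3.00, at 97 and 68 counts in EV and 13 and 7 in C-MYC), the phosphatase genes Ptpn6 (-1.32) and Ptprc (-1.21), and the STAT3 inhibitor gene Pias3 (-1.22). Between the oncogenes 1 of 4 and 6 of 13 were higher in BCR-ABL1 and 0 lower in either list (medians 0.03 and 0.52).

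Genes whose products the PIM kinases phosphorylate or whose promoters BCL6 represses were read in the same fit. Of 12 PIM substrate genes, 1 rose in BCR-ABL1 and 0 fell, beside 5.08% and 12.0% of all tested genes (median 0.12, 3 at an unadjusted p below 0.05 by edgeR and 3 called by DESeq2). That gene was Myc (log2 fold change 1.12, edgeR adjusted p = 0.00681), whose vector-borne copy is counted with it in C-MYC. In C-MYC 5 rose and 2 fell (median 0.18), among them the translation repressor gene Eif4ebp1 (1.19), the cell cycle phosphatase gene Cdc25a (0.92) and Foxo1, a transcription factor of early B cells (-0.96), beside Myc at 3.23. Between the oncogenes 2 of 12 were higher in BCR-ABL1 and 4 lower (median -0.08). Myc is counted among the genes higher in C-MYC than in EV and than in BCR-ABL1. Its vector-borne copy is included there, so that its direction adds nothing to those counts. Of 8 BCL6 corepressors, 0 passed between BCR-ABL1 and EV (0 at an unadjusted p below 0.05 by edgeR and 0 called by DESeq2, median 0.11). In C-MYC 1 of the 8 rose and 0 fell (median 0.10), and between the oncogenes 0 were higher and 1 was lower in BCR-ABL1 (median -0.0038). Of 15 genes known to be repressed by BCL6, 1 rose and 6 fell in BCR-ABL1 (median 0.01), and 3 rose and 8 fell in C-MYC (median -0.88). Id2, an inhibitor of helix-loop-helix factors (-2.40), the costimulatory gene Cd80 (-2.35) and the plasma cell regulator Prdm1 (-1.72) fell in BCR-ABL1, and the activation marker Cd69 (-2.36) and Cd80 fell in C-MYC, while Bcl2l1 is in this list too. Cd80 had 49 and 33 counts in EV, 7 and 9 with BCR-ABL1 and 11 and 9 with C-MYC. It met the count filter through EV alone, so that its direction adds nothing to the counts of genes that fell. Between the oncogenes 4 of 15 were higher in BCR-ABL1 and 2 lower (median 0.40).

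Most of the receptors and relatives of oncostatin M that were tested fell in both oncogene conditions. Of the 9 listed, 6 had enough counts for the test, of which 5 fell and 0 rose in BCR-ABL1 (median log2 fold change -1.67, 5 at an unadjusted p below 0.05 by edgeR and 4 called by DESeq2) and 6 fell in C-MYC (6 by both of these counts), where the median was -2.28, or -2.02 with Osmr at its bound. Osmr, the receptor chain for oncostatin M, had 14 and 12 counts in EV, 0 and 1 with BCR-ABL1 and 0 and 0 with C-MYC, at least 4.24-fold lower in C-MYC when 3 counts per library are allowed for. Osmr met the count filter through EV alone, so that its direction adds nothing to the counts of genes that fell. Il6st, which encodes the shared receptor chain gp130 and is named after its values were seen, was at 28.5 and 23.5 CPM in EV, 14.7 and 15.9 with BCR-ABL1 and 14.0 and 17.7 with C-MYC, and fell in both (log2 fold changes -0.76 and -0.72, edgeR adjusted p = 0.0264 and 0.0153). Il6ra, the IL-6 receptor chain, fell from 202 and 253 counts in EV to 41 and 33 in BCR-ABL1 (-2.60). The receptor gene Lifr (-1.44 and -2.61) and the cytokine gene Clcf1 (-1.90 and -2.73) fell in both conditions, and the cytokine gene Lif fell in C-MYC (-1.95, from 91 and 364 counts in EV to 42 and 69). Between BCR-ABL1 and C-MYC, 1 of 6, Lif with 219 and 261 counts in BCR-ABL1, was higher in BCR-ABL1 and 0 were lower (median 1.00). The stromal and myeloid markers given above fell in the same comparisons, and their part was not tested.

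To find the genes whose pattern over the 6 libraries was most like each of the 9, log2 CPM values were centred on the mean of each gene and compared by Euclidean distance. Pim2 had the nearest neighbour of the 9, Rgs2 at 0.0984, where the median distance from Pim2 to all genes was 1.89, followed by Nfkbie and Lax1. Nearest to Cish were Zdhhc2 (0.388, median 2.33), Ggnbp1 and Tmed6. Nearest to Socs1 were Efhd1 (0.292, median 2.23), Pcdhgc4 and Aldoc, to Socs2 Mta3 (0.112, median 0.888), Zfp809 and Phtf1, and to Socs3 Slfn2 (0.487, median 2.40), Lrrn3 and Cyp4f18. Nearest to Pim1 were Rxfp1 (0.227, median 1.60), 1700030K09Rik and Phlda3, and to Pim3 Ppan (0.214, median 1.40), a ribosome biogenesis gene, 9430020K01Rik and Ntmt1. Bcl6 had the most distant nearest gene, Abcb1a (0.691, median 2.61), followed by Bend4 and Sgms2, and Osm was nearest to 2810002D19Rik, AI182371 and Disp1 (0.192 for each, median 1.10). The 6 libraries fall into only 3 conditions, so that many genes lie close to any one of the 9 and the order of neighbours is a description.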

How the data were processed

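Poly(A) RNA-seq of 6 libraries (EV, BCR-ABL1 and C-MYC, 2 each) was used out of 21 samples, and the 15 ChIP-seq samples were not analysed here. Conditions and replicate numbers came from the labels. The authors aligned reads to GRCm38/mm10 with STAR 2.5.0 and deposited whole-number counts per gene symbol without normalization. FPKM values per gene symbol were calculated by the authors with StringTie 1.3.0 and deposited in a separate table. The program that counted reads and its strand setting are not given in the sources used here.

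Counts were tested with edgeR 4.0.16 in R 4.3.3: filterByExpr by condition (12786 of 24421 genes kept), TMM scaling, all 6 libraries in 1 model without a covariate, quasi-likelihood test, Benjamini-Hochberg adjustment over all tested genes and calls at an adjusted p below 0.05. The standard error is the absolute log2 fold change divided by the square root of F. CPM are TMM-normalized. FPKM served for levels between genes and, with limma 3.58.1 on log2(FPKM + 1) for genes at 1 or more in at least 2 libraries, as an alternative, beside DESeq2 1.42.0, another scaling, no filter, only the 4 libraries compared, a replicate term and each library left out. When a lone library remained, it was assumed to vary like the other groups.

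Totals of 20687092 to 24095955 counts left the spread between replicates (common biological coefficient of variation 0.151) as the main limit on precision, with 2 libraries per condition. Exon lengths and positions are from GENCODE M21, and promoter windows from RefSeq. Python 3.11.15, pandas 2.3.3 and matplotlib 3.10.9 were used for sequences and figures. The 9 genes and the gene lists were chosen with earlier results of these data known. All 9 genes are named, with up to 4 genes of each other list with the largest change among those called against EV, the 3 genes nearest to each of the 9, and Trp53bp1, Myc, Abl1 and Bcr as checks. Markers at 0 and the STAT5 genes are named outside this rule. Some genes that this rule would name are not reported here.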

Additional observations from a re-analysis of the deposited data

How the results depend on the processing

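With 2 libraries per condition, the number of the 9 genes called depends on single libraries. With each library left out, it was 1 to 5 between BCR-ABL1 and EV, 3 to 7 between C-MYC and EV and 3 to 7 between BCR-ABL1 and C-MYC, and the count of all genes called was 665 to 2729, 3329 to 6077 and 618 to 4519. For the 9 genes, the count of 1 came without any one of the 4 oncogene libraries, both counts of 3 without C-MYC replicate 2, and the highest counts without an EV library. The 5 between BCR-ABL1 and EV without EV replicate 2 add Socs3, Pim1 and Bcl6, the 7 between C-MYC and EV without EV replicate 1 add Cish, Pim1 and Osm, and the 3 between the oncogenes without C-MYC replicate 2 lack Socs1, Pim1 and Pim2. With libraries left out, log2 fold changes that turned ranged from -0.1634 to 0.9614 for Pim1 and from -0.5513 to 0.1786 for Osm between BCR-ABL1 and EV, and from -0.7828 to 0.1852 for Cish, -0.1368 to 0.07141 for Socs2 and -2.47 to 0.06922 for Bcl6 between C-MYC and EV. Pim1, Socs2 and Bcl6 turned without EV replicate 1, Osm and Cish without EV replicate 2, and Socs2 also without C-MYC replicate 2 (0.06835). Socs2 between C-MYC and EV also turned to 0.007245 with DESeq2's size factors, 0.007251 with DESeq2's test and 0.01805 with only the 4 libraries compared. The causes were not tested.

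Between BCR-ABL1 and EV, 4 of the 9 genes were called without a filter on low counts (adding Socs3 and Bcl6), 1 with only the 4 libraries compared, 1 with limma on FPKM, which called 1257 genes in all against 2180 by edgeR, and 0 by limma on FPKM without a filter, where 4 had an unadjusted p below 0.05. Between BCR-ABL1 and C-MYC, all genes called rose from 2991 to 4538 with only the 4 libraries compared, and fell from 2164 to 1412 by limma on FPKM without a filter. Over the 9 genes, 3 comparisons and 7 other settings, 165 values kept direction and call, 18 gained a call, 3 lost one and 3 turned. Over the libraries left out, 132 kept both, 10 gained a call, 14 lost one and 6 turned.

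Replicates with the same number deviated together only in part (correlations of 0.273, 0.236 and 0.204 over genes), and nothing in the labels makes a number a shared animal or day, so that no pairing was assumed. With a replicate block, 6 of the 9 genes were called between BCR-ABL1 and EV (adding Socs1, Socs2, Socs3 and Bcl6), 6 between C-MYC and EV (adding Pim1 and Bcl6) and 7 between the oncogenes (adding Socs2), with 3224, 6631 and 4278 of all genes.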
